A study of Mus musculus with 24 samples.

Results

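The intercalated cell and acid-base genes of the kidney were followed after myocardial infarction (MI). These 10 genes, Atp6v1b1, Atp6v0d2, Atp6v1g3, Slc4a1, Slc26a4, Foxi1, Car2, Rhcg, Aqp6 and Slc4a9, were chosen by name, and all 10 were found among the 56941 genes of the count table. Male wild-type C57BL/6J mice of 8 to 11 weeks had MI induced by tying off the left anterior descending artery (LAD) for good, and sham mice were operated on in the same way without the tie. Kidneys were taken 5d post-MI (8 mice used here) or 28d post-MI (6 mice). All 8 sham kidneys came from the 5d time and were the controls of either MI group. A difference between 28d post-MI and sham kidneys therefore cannot be told apart from the longer time since the operation. RNA was sequenced by MACE, which reads fragments from the 3′ ends of mRNA, so that the tags of a gene are not divided by its length. Each molecule also carries a unique identifier.

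Intercalated cells are the acid-handling cells of the connecting tubule and collecting duct. Type A cells secrete protons into the urine through a V-ATPase, a proton pump of many subunits, and return bicarbonate to the blood through the anion exchanger Slc4a1. Type B cells work in the opposite sense and secrete bicarbonate through pendrin (Slc26a4). Carbonic anhydrase 2 (Car2) supplies both protons and bicarbonate inside the cell, and the forkhead transcription factor Foxi1 is needed for these cells to form. Their neighbours in the same duct, the principal cells, take up sodium and water.

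The libraries held 2280618 to 3786275 counts, the median being 3206756 for sham, 3057828 for 5d and 2644574 for 28d kidneys. Values are given as CPM, the count of a gene scaled to the library total, after TMM normalization, which evens out differences in library make-up. The defining genes of both cell types were present: every member was counted in every kidney, with between 29 counts (the lowest value of Foxi1) and 1227 counts (the highest value of Car2). In 2 sham kidneys, replicates 2 and 6, the summed level of 5 adrenal cortex genes was 966 and 719 CPM, against 0.795 to 84 CPM in the other 20 kidneys, so the count of members called is also given without them. The samples are separate mice by the study's description.

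All 10 members passed the count filter, and none was called in any of the 3 comparisons (edgeR quasi-likelihood test, Benjamini-Hochberg adjusted p-value under 0.05 over 12780 genes). The background was low too: 9 of 12780 genes (0.0704%) were called at 5d post-MI against sham, 3 (0.0235%) at 28d post-MI against sham and 53 (0.415%) between 28d and 5d post-MI. At an unadjusted p-value under 0.05 there were 2 members of 10 at 5d post-MI (Aqp6 and Rhcg), where 7.9% of all genes fell under it. At 28d post-MI there was 1 member (Car2) against a background of 8.68%, and between the times again 1 (Car2) against 9.05%. DESeq2, which called 0.241%, 1.44% and 0.565% of the genes it gave an adjusted p-value, called 0 members as well, although it gave an adjusted p-value to only 2 of them (Car2 and Rhcg) at 28d post-MI. Without the 2 sham kidneys high in adrenal genes, edgeR again called 0 members, and 1, 1 and 53 genes in all. No member separated any pair of groups without overlap, and how many of all genes did so was not counted.

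The fitted differences were small and their intervals narrow. At 5d post-MI, 6 members were higher and 4 lower than in sham kidneys, with log2 fold changes from −0.09 to 0.23 and a median of 0.07. At 28d post-MI the count was again 6 higher and 4 lower, from −0.20 to 0.17 with a median of 0.07. Between 28d and 5d post-MI, 1 was higher and 9 lower, from −0.17 to 0.13 with a median of −0.07. The median of all 12780 genes was 0.00018, −0.0012 and −0.0046 in the same order. The 95% intervals of all 10 members lay within ±0.5 on the log2 scale in each of the 3 comparisons. Their outer limits were −0.31 and 0.47 at 5d, −0.43 and 0.38 at 28d, and −0.43 and 0.34 between the times. In fold these limits run from 0.806 to 1.38, from 0.745 to 1.3 and from 0.741 to 1.27.

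**Figure D1:**
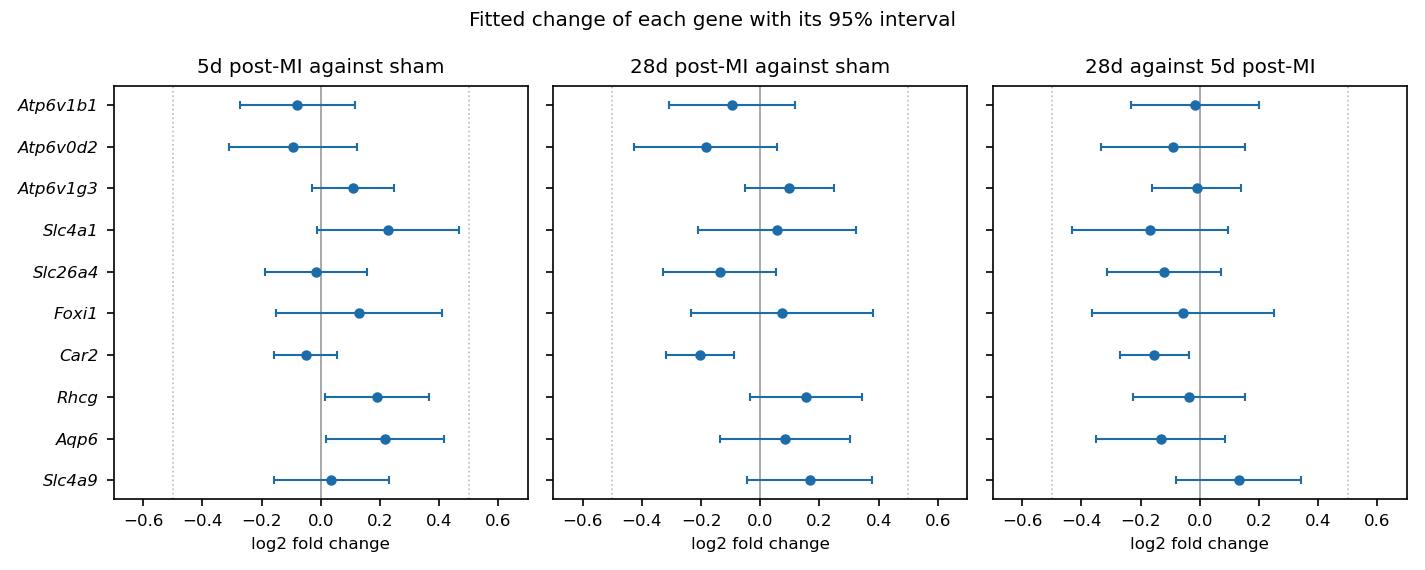
Log2 fold change of each of the 10 genes (points) with its 95% interval from the edgeR fit (bars) in the 3 comparisons of 22 kidneys; the dotted lines mark ±0.5. All intervals lie inside the dotted lines, and Car2 at 28d post-MI (−0.20, interval −0.32 to −0.09) has the interval farthest from 0.

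The proton pump is represented by the subunit isoforms Atp6v1b1 (B1), Atp6v1g3 (G3) and Atp6v0d2 (d2), which are enriched in intercalated cells. Atp6v1b1 (ENSMUSG00000006269, chromosome 6, 83742990 to 83758855, plus strand, GRCm38) ranged from 37.2 to 53.9 CPM in sham kidneys (median 43.7), from 31.2 to 53.3 CPM at 5d (median 41.6) and from 33.5 to 49.0 CPM at 28d (median 40.4). The 3 ranges overlapped over most of their length, and the log2 fold change was −0.08 ± 0.10 (SE, adjusted p = 0.90) at 5d and −0.10 ± 0.11 (adjusted p = 0.87) at 28d. Defects of the human B1 gene cause distal renal tubular acidosis with deafness.

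Atp6v1g3 (ENSMUSG00000026394, chromosome 1, 138273738 to 138289462, plus strand) was the most abundant pump member of the set. It ranged from 68.2 to 80.0 CPM in sham kidneys (median 70.1), from 66.9 to 96.9 CPM at 5d (median 75.1) and from 66.4 to 85.0 CPM at 28d (median 77.2). The sham kidneys were close together, with a coefficient of variation of 5.81%, and 2 kidneys at 5d and 2 at 28d lay above all of them, while 2 at 5d and 1 at 28d lay below all of them. Its fitted log2 change was 0.11 ± 0.07 (SE, adjusted p = 0.74) at 5d and 0.10 ± 0.07 (adjusted p = 0.77) at 28d.

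Atp6v0d2 (ENSMUSG00000028238, chromosome 4, 19876841 to 19922605, minus strand) encodes a subunit of the membrane part of the pump. It ranged from 16.1 to 21.99 CPM in sham kidneys (median 18.1), from 14.3 to 20.6 CPM at 5d (median 19.2) and from 13.1 to 18.5 CPM at 28d (median 17.4). All 6 kidneys at 28d were below the sham mean of 19.0 CPM, but only 2 were below the lowest sham kidney. Its log2 fold change was −0.18 ± 0.12 (SE, adjusted p = 0.71) at 28d.

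Each of these isoforms has a widely expressed counterpart, and the share within the pair does not depend on library scaling. Atp6v1b1 made up 12.1% ± 1.4 of the B subunit counts (Atp6v1b1 plus Atp6v1b2) in sham kidneys (SD, n = 8), 12.4% ± 2.1 at 5d (n = 8) and 11.4% ± 1.6 at 28d (n = 6). Atp6v1g3 made up 38.2% ± 2.3, 38.9% ± 3.3 and 39.3% ± 1.6 of its pair with Atp6v1g1 in the same groups. Atp6v0d2 made up 12.6% ± 2.0, 11.5% ± 1.4 and 10.5% ± 1.2 of its pair with Atp6v0d1. The ranges of the groups overlapped for all 3 shares, the last running from 9.62% to 15.4% in the sham group, against 9.26% to 12.4% at 28d. The counterparts themselves were not called, with log2 fold changes at 5d and 28d of −0.11 and 0.00 for Atp6v1b2, 0.06 and 0.03 for Atp6v1g1, and 0.04 and 0.09 for Atp6v0d1.

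Slc4a1 (ENSMUSG00000006574, chromosome 11, 102348824 to 102366203, minus strand) encodes the chloride-bicarbonate exchanger of type A cells, and a longer form of the same protein is the band 3 protein of red blood cells. It ranged from 18.3 to 34.6 CPM in sham kidneys (median 27.4), from 21.4 to 40.7 CPM at 5d (median 31.4) and from 23.6 to 31.0 CPM at 28d (median 28.6). At 5d post-MI 3 of 8 kidneys lay above the highest sham kidney, and the log2 fold change was 0.23 ± 0.12 (SE, 95% interval −0.01 to 0.47, adjusted p = 0.66). At 28d it was 0.06 ± 0.13 (adjusted p = 0.95).

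Tags from the 3′ end cannot separate the kidney form of Slc4a1 from that of red blood cells, so the haemoglobin genes were set beside it. All 4 haemoglobin genes were called higher at 5d post-MI, by 1.44 to 1.53 on the log2 scale, and lower at 28d than at 5d, by a log2 change of −1.75 to −1.88. Hba-a1 ranged from 581 to 985 CPM in sham kidneys (median 883), from 1286 to 4758 CPM at 5d (median 2089) and from 438 to 1228 CPM at 28d (median 615). At 5d its adjusted p-value was 0.036, and the call was lost in 16 of 30 alternative fits. The fit adjusted for the haemoglobin genes themselves, where it was lost too, is not counted here. Over these 30 fits the log2 fold change stayed between 1.289 and 1.595, and the adjusted p ran from 4.1e-06 to 0.133. The call was lost without any one of sham replicates 1 to 7, 5d replicates 2, 7 or 9, or 28d replicates 3, 4 or 6 (adjusted p up to 0.102). It was also lost without both sham kidneys high in adrenal genes (adjusted p = 0.133). Hbb-bs was called at 5d with an adjusted p of 0.042 and lost in 18 of 22 fits that left out 1 kidney. Its log2 fold change over these 22 fits lay between 1.246 and 1.546. Of the 13 other red blood cell genes only 5 passed the count filter and 0 were called. The defining genes Alas2 and Epb42 did not pass it. The summed level of the 13 ran from 100.3 to 136 CPM in sham kidneys, from 118 to 195 CPM at 5d and from 94.98 to 125 CPM at 28d.

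Over the 22 kidneys, with each group centred on its own mean, Slc4a1 had a Pearson's r of 0.38 with the mean log2 CPM of the 4 haemoglobin genes (permutation p = 0.107, adjusted 0.213 over the 2 genes tested) and a Spearman's rho of 0.34 (permutation p = 0.144, adjusted 0.253). Without the 2 kidneys farthest from the median of the haemoglobin score, r was 0.24. Within the groups r was 0.86 in sham kidneys, 0.32 at 5d and 0.08 at 28d. Sham replicate 4 was the lowest sham kidney in both the score (8.94) and Slc4a1 (log2 CPM 4.249). The scores of the 5d kidneys, from 10.1 to 12.1, all lay above those of the sham kidneys, from 8.94 to 9.87, so that a higher haemoglobin level and the time of 5d post-MI cannot be told apart in these groups. Car2, which red blood cells also contain, had an r of −0.25 with the same score (permutation p = 0.287, adjusted 0.287) and a rho of −0.26 (permutation p = 0.253, adjusted 0.253), with −0.22 left when 2 kidneys were taken out. Its r was 0.32 in sham kidneys, −0.76 at 5d and −0.05 at 28d. The part of red blood cell RNA in the Slc4a1 values was not tested further.

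**Figure D2:**
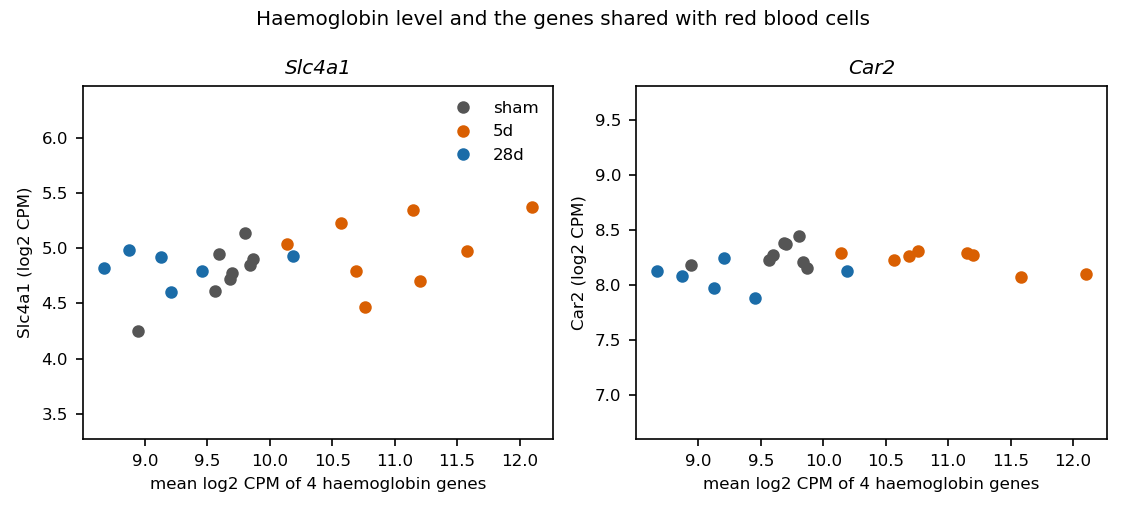
Slc4a1 (left) and Car2 (right), each as log2 CPM on the y axis, against the mean log2 CPM of 4 haemoglobin genes on the x axis; each point is 1 of 22 kidneys, coloured by group. The 5d kidneys lie to the right of nearly all others, while the Slc4a1 and Car2 values of the 3 groups overlap.

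Slc26a4, pendrin (ENSMUSG00000020651, chromosome 12, 31519827 to 31559969, minus strand), exchanges chloride for bicarbonate at the apical side of type B cells. It ranged from 27.1 to 42.4 CPM in sham kidneys (median 34.6), from 28.0 to 39.8 CPM at 5d (median 35.0) and from 28.4 to 37.3 CPM at 28d (median 30.4). Every kidney of both MI groups lay inside the sham range, and the fitted log2 change was −0.02 ± 0.09 (SE, adjusted p = 0.98) at 5d and −0.14 ± 0.09 (adjusted p = 0.74) at 28d.

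Slc4a9 (ENSMUSG00000024485, on chromosome 18), an anion exchanger of the basolateral side of type B cells, had group means that lay in the order sham, 5d, 28d from low to high. It ranged from 21.6 to 33.4 CPM in sham kidneys (median 25.4), from 21.97 to 31.2 CPM at 5d (median 27.8) and from 25.8 to 36.5 CPM at 28d (median 30.8). The groups overlapped almost fully, 5 of 6 kidneys at 28d being above the sham mean of 26.9 CPM. The log2 fold change was 0.17 ± 0.10 (SE, adjusted p = 0.70) at 28d and 0.04 ± 0.10 (adjusted p = 0.96) at 5d.

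The type B exchangers were also set against Slc4a1 within each kidney. Since the Slc4a1 counts may hold tags of red blood cells, whose haemoglobin RNA was higher at 5d, these are ratios of tags and not a measure of the balance between the cell types. The ratio of Slc26a4 to Slc4a1 counts was 1.34 ± 0.39 in sham kidneys (SD, n = 8), 1.13 ± 0.27 at 5d (n = 8) and 1.13 ± 0.17 at 28d (n = 6). The ratio of Slc4a9 to Slc4a1 was 1.05 ± 0.37, 0.912 ± 0.22 and 1.10 ± 0.22 in the same order. For both ratios the differences between group means were smaller than the SD of the sham kidneys, and the ranges overlapped. In RNA of kidney tissue, fewer cells of a type and less RNA per cell cannot be told apart.

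Car2 (ENSMUSG00000027562, chromosome 3, 14886273 to 14900770, plus strand) encodes the cytosolic carbonic anhydrase, which proximal tubule cells contain as well as intercalated cells. It ranged from 285 to 348 CPM in sham kidneys (median 303), from 268 to 316 CPM at 5d (median 308) and from 236 to 303 CPM at 28d (median 274). At 28d, 5 of 6 kidneys were below the lowest sham kidney and replicate 3, at 303 CPM, was inside the sham range. Means were 311 ± 23 CPM in sham kidneys (SD, n = 8), 299.8 ± 19 CPM at 5d (n = 8) and 269.6 ± 24 CPM at 28d (n = 6).

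The log2 fold change of Car2 at 28d against sham was −0.20 ± 0.06 (SE, 95% interval −0.32 to −0.09), a fold of 0.868 (0.801 to 0.940). Its unadjusted p of 0.00091 was the lowest of any member in any comparison, and the edgeR adjusted p over all genes was 0.227. Over 31 alternative fits the log2 fold change lay between −0.24 and −0.17 and the adjusted p between 0.061 (DESeq2) and 0.420 (without 28d replicate 6). DESeq2 adjusted over only 2090 genes in this comparison, against 12780 in the main edgeR fit, so these 2 adjusted p-values are not on the same footing. Without the 2 sham kidneys high in adrenal genes it was −0.24 (adjusted p = 0.308). Between 28d and 5d post-MI it was −0.15 ± 0.06 (unadjusted p = 0.010, adjusted p = 0.33), and at 5d against sham −0.05 ± 0.05 (adjusted p = 0.88).

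Rhcg (ENSMUSG00000030549, chromosome 7, 79593363 to 79617657, minus strand) forms an ammonia channel, through which the collecting duct excretes acid as ammonium. It ranged from 68.8 to 91.2 CPM in sham kidneys (median 79.0), from 72.6 to 120.1 CPM at 5d (median 86.4) and from 75.2 to 105 CPM at 28d (median 92.7). At 5d 3 of 8 kidneys and at 28d 4 of 6 lay above the highest sham kidney. The log2 fold change was 0.19 ± 0.09 (SE, 95% interval 0.02 to 0.37, unadjusted p = 0.033, adjusted p = 0.59) at 5d and 0.15 ± 0.09 (adjusted p = 0.68) at 28d. GENCODE places another gene, Gm45170, on the same strand over Rhcg, and what this did to its tags was not tested.

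Aqp6 (ENSMUSG00000043144, chromosome 15, 99601400 to 99605477, plus strand), a channel of the aquaporin family found in vesicles of type A cells, had the second difference under an unadjusted p of 0.05 at 5d. It ranged from 38.3 to 67.2 CPM in sham kidneys (median 55.7), from 53.6 to 76.8 CPM at 5d (median 61.7) and from 50.8 to 66.4 CPM at 28d (median 58.1). At 5d 7 of 8 kidneys were above the sham mean of 55.2 CPM and 3 above the highest sham kidney, while all kidneys at 28d lay inside the sham range. The log2 fold change was 0.22 ± 0.10 (SE, 95% interval 0.02 to 0.42, unadjusted p = 0.034, adjusted p = 0.59) at 5d and 0.08 ± 0.11 (adjusted p = 0.90) at 28d.

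Correlations of the members with markers of other cells were added after seeing the data. Aqp6 moved from kidney to kidney with markers of the thick ascending limb, another part of the tubule. Each member was correlated over the 22 kidneys, centred within groups, with the mean log2 CPM of 6 marker lists, and of these 60 relations only this one had an adjusted permutation p under 0.05 (r = 0.79, permutation p = 2e-05, adjusted 0.0012; rho = 0.76, permutation p = 7e-05, adjusted 0.0042). It was 0.67 without the 2 kidneys farthest from the median of the marker score, and 0.87, 0.70 and 0.76 within the sham, 5d and 28d groups. Slc4a1 came next with the same markers (r = 0.65, permutation p = 0.0027, adjusted 0.081; rho = 0.50, permutation p = 0.023, adjusted 0.373), with 0.43 left without 2 kidneys and 0.84, 0.56 and 0.44 within the groups. At 5d post-MI 5 of the 6 thick ascending limb markers were higher than in sham kidneys and 3 of 6 fell under an unadjusted p of 0.05, against the background of 7.9%, with a median log2 fold change of 0.17. Their summed level ran from 1890 to 3152 CPM in sham kidneys, from 2506 to 3288 CPM at 5d and from 2300 to 2972 CPM at 28d. Sham replicate 4 was the lowest sham kidney in this sum, in Aqp6 and in Slc4a1. The part of these markers in the values of Aqp6 and Slc4a1 was not tested.

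Foxi1 (ENSMUSG00000047861, chromosome 11, 34204338 to 34208089, minus strand) was the member with the fewest tags. It ranged from 8.36 to 16.4 CPM in sham kidneys (median 13.96), from 11.2 to 18.9 CPM at 5d (median 14.4) and from 11.6 to 20.7 CPM at 28d (median 13.0). The 28d group held the highest kidney of all, replicate 7, yet 4 of its 6 kidneys were below the sham mean of 13.7 CPM. On the log2 scale the change was 0.13 ± 0.14 (SE, adjusted p = 0.88) at 5d and 0.07 ± 0.15 (adjusted p = 0.95) at 28d. Without replicate 7 the value at 28d was −0.09.

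**Figure D3:**
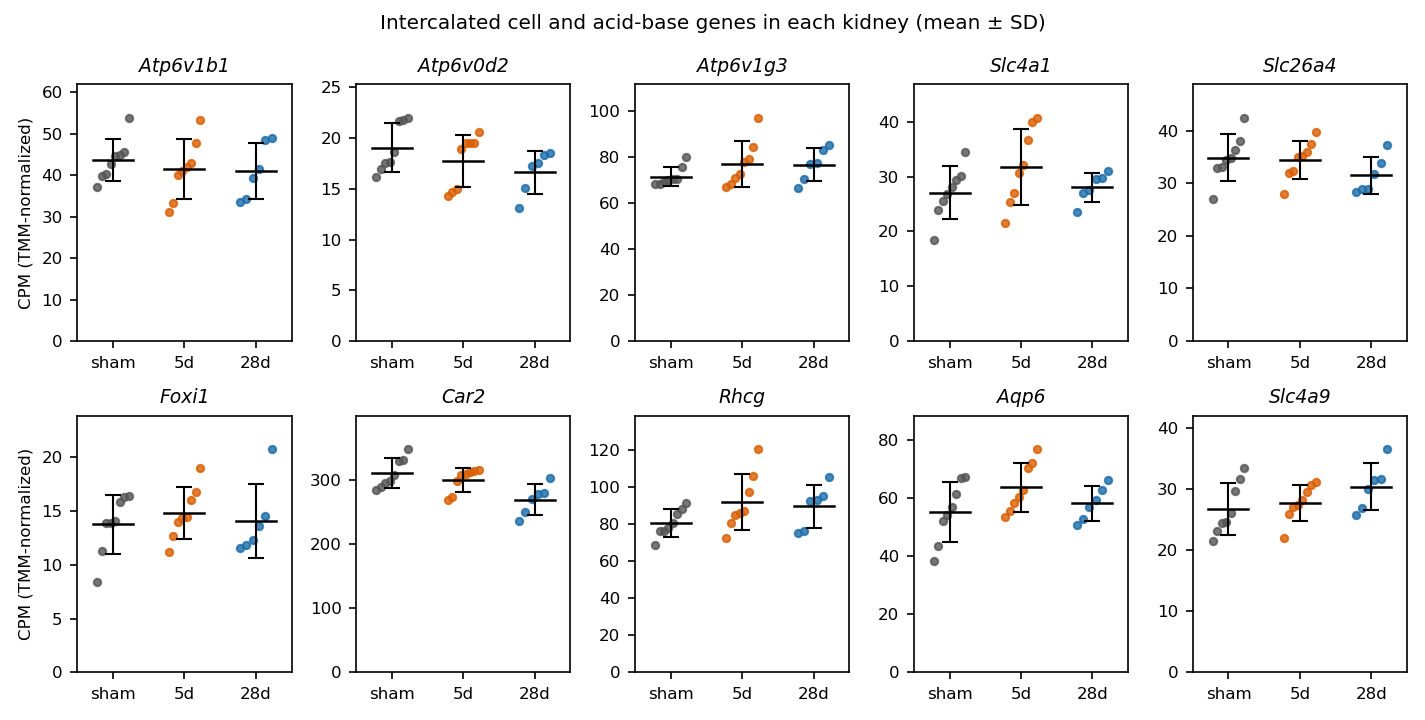
CPM (TMM-normalized, y axis from 0) of each of the 10 genes in 8 sham kidneys, 8 kidneys at 5d and 6 kidneys at 28d post-MI; points are single kidneys, in order of their value within a group, and lines with bars give the mean ± SD. The groups overlap for every gene, and for Car2 5 of 6 kidneys at 28d lie below the lowest sham kidney.

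Since MACE counts 1 tag per transcript end, levels can be set side by side between genes as tags, with the caution that genes may differ in how well their ends are captured. In sham kidneys the means ran in the order Car2 (311 CPM), Rhcg (80.5 CPM), Atp6v1g3 (71.5 CPM), Aqp6 (55.2 CPM), Atp6v1b1 (43.6 CPM), Slc26a4 (34.9 CPM), Slc4a1 (27.1 CPM), Slc4a9 (26.9 CPM), Atp6v0d2 (19.0 CPM) and Foxi1 (13.7 CPM). Car2 stood clear of the rest, and the range of Atp6v1g3 began above that of Aqp6 in sham kidneys. All other neighbours in this order overlapped in range. Between the lowest and the highest of the 22 kidneys the members differed by 1.46-fold (Atp6v1g3) to 2.48-fold (Foxi1).

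The 10 genes did not vary together from kidney to kidney in a way that passed correction. Over 22 kidneys, with each group centred on its own mean, 29 of the 45 pairs had a positive Pearson's r, the median was 0.11, and 0 pairs had an adjusted permutation p under 0.05, with 5 under 0.05 before adjustment. The highest r was that of the pump subunits Atp6v1b1 and Atp6v1g3 (r = 0.59, permutation p = 0.012, adjusted 0.296; rho = 0.57, permutation p = 0.013, adjusted 0.479), and it was 0.49 without the 2 kidneys farthest from the median of Atp6v1b1. Within the groups this pair had an r of −0.13 in sham kidneys, 0.82 at 5d and 0.56 at 28d. Foxi1 and Aqp6 followed (r = 0.55, permutation p = 0.013, adjusted 0.296; rho = 0.47, permutation p = 0.037, adjusted 0.479), with 0.56, 0.50 and 0.66 within the groups and 0.36 without 2 kidneys. The lowest r was that of Atp6v0d2 and Slc4a9, at −0.44 (permutation p = 0.047, adjusted 0.327; rho = −0.43, permutation p = 0.053, adjusted 0.479), and it was −0.59 without 2 kidneys, with −0.59, −0.69 and 0.11 within the groups.

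**Figure D4:**
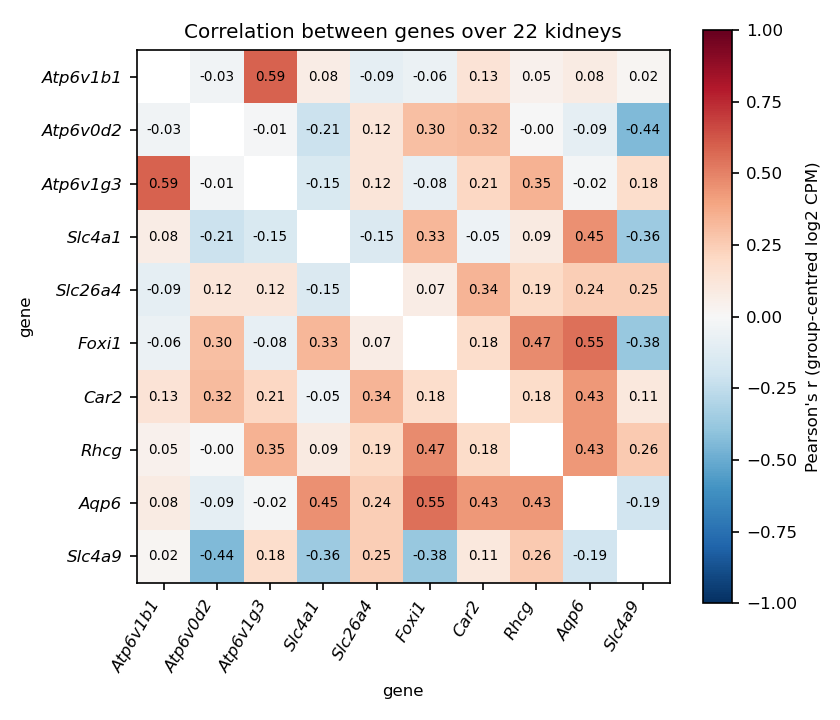
Pearson's r between each pair of the 10 genes over 22 kidneys, from log2 CPM centred within each group, shown by colour and as a number. Atp6v1b1 with Atp6v1g3 (0.59) and Foxi1 with Aqp6 (0.55) are the highest, Atp6v0d2 with Slc4a9 (−0.44) the lowest, and no pair passed correction.

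Among all tested genes, those that followed the mean of the 10 members most closely over the 22 kidneys were Gm15727 (r = 0.81), Trim39 (0.77), Sema7a (0.76), Shank3 (0.72) and Gpx6 (0.70). Of the members themselves Aqp6 (0.72), Rhcg (0.69) and Foxi1 (0.66) followed that mean, which contains them, most closely, and Slc4a9 (−0.01) least. For Atp6v1b1 the nearest genes were Depdc5 (0.85), Rgl2 (0.72) and Tab1 (0.72). For Slc4a1 they were Wfdc15b (0.82), Ckb (0.80) and Napsa (0.79), and for Slc26a4 Palld (0.76), Slc22a23 (0.74) and 1810058I24Rik (0.74). These are the highest of 12780 values each and are given as a description.

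Foxi1 belongs to the forkhead factors, whose core motif reads TGTTTAC in its fullest form, and the promoters of the members were searched for it. RefSeq windows on GRCm38.p6, from 250 bases before to 50 bases after the start of transcription, were held for 6 of the 10 genes (Atp6v1b1, Atp6v1g3, Rhcg, Foxi1, Slc26a4 and Aqp6). TGTTTAC on either strand was found in 1 of the 6, Atp6v1b1, and in 3.65% of 32851 windows of the same length. The shorter TGTTTA, which lies within it, was found in the same 1 of 6 against 13.4% of windows, and the variant TGTTTG in 2 of 6 (Atp6v1g3 and Slc26a4) against 18.2%. Over the 22 kidneys Foxi1 itself had an r of −0.06 with Atp6v1b1, −0.08 with Atp6v1g3 and 0.07 with Slc26a4, and none passed correction. The windows with a match, those of Atp6v1b1, Atp6v1g3 and Slc26a4, are shown. Each window is written 5′ to 3′ on the gene's own strand, with the motif or its reverse complement in capitals. A match is a string of letters, not a measured binding site.
Atp6v1b1, chr6:83742767-83743066, plus strand, TGTTTAC at −98 to −92: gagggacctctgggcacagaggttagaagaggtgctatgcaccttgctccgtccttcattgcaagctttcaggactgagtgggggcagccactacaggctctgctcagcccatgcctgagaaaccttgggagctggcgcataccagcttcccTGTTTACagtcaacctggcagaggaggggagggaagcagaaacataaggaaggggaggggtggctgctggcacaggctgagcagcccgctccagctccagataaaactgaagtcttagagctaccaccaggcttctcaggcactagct
Atp6v1g3, chr1:138273488-138273787, plus strand, TGTTTG reversed at −66 to −61: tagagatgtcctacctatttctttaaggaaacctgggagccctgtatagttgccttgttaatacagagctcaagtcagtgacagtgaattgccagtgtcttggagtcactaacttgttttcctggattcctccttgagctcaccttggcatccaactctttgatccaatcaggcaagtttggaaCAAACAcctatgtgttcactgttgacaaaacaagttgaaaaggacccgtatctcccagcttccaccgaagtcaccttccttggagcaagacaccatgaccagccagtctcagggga
Slc26a4, chr12:31559935-31560234, minus strand, TGTTTG reversed at 28 to 33: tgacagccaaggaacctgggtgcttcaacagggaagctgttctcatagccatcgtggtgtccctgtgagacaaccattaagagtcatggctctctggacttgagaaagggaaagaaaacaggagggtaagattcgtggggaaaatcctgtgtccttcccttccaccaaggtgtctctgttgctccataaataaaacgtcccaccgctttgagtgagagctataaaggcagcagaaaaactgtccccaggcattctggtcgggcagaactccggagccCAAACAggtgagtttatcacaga
Positions count from the start of transcription, 1 being its first base. At 28d post-MI the log2 fold changes of these genes were −0.10 for Atp6v1b1, 0.10 for Atp6v1g3 and −0.14 for Slc26a4.

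The wider acid-base machinery was read from lists of other genes. All 19 V-ATPase subunits and accessory proteins outside the members passed the filter and 0 were called in any comparison, with median log2 fold changes of 0.03 at 5d, 0.03 at 28d and 0.01 between the times. The lowest p-values were those of the stalk subunit Atp6v1e1 at 5d (log2 fold change 0.10, adjusted p = 0.55), the accessory protein Atp6ap2 at 28d (−0.15, adjusted p = 0.49) and Atp6v0a4, the pump subunit of intercalated and proximal tubule cells, between the times (−0.19, adjusted p = 0.32). The summed level of this list lay between 3117 and 3526 CPM in all 22 kidneys.

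Of 12 other bicarbonate and acid transporters, 9 passed the filter and 0 were called. The lowest p-values belonged to Atp4a, the gastric-type proton-potassium pump, at 5d (log2 fold change 0.24, adjusted p = 0.56) and between the times (−0.21, adjusted p = 0.62). At 28d it was Slc4a4, which carries bicarbonate out of proximal tubule cells (−0.07, adjusted p = 0.81). Of 8 other carbonic anhydrases, 6 passed and 0 were called. Car4, the membrane-bound enzyme of the tubule, stood at 0.13 (adjusted p = 0.84) at 5d, Car14 at −0.34 (adjusted p = 0.70) between the times, and Car3, which fat cells make in large amounts, at −0.75 (adjusted p = 0.66) at 28d. Of 7 acid sensing and signalling genes, 3 passed and 0 were called, the lowest p-values being those of the kinase Ptk2b at 5d (−0.11, adjusted p = 0.86) and of the proton-sensing receptor Gpr4 at 28d (0.38, adjusted p = 0.71) and between the times (0.32, adjusted p = 0.78).

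Of 14 other genes of intercalated cells, 11 passed the filter and 0 were called. P2ry14, a receptor for UDP-glucose on intercalated cells, had the lowest p-value at 28d (log2 fold change −0.93, adjusted p = 0.33) and between the times (−0.76, adjusted p = 0.42), on means of 4.15 CPM in sham kidneys, 3.56 CPM at 5d and 2.14 CPM at 28d. The median log2 fold change of the 11 was 0.05 at 5d and −0.07 at 28d.

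Of 11 principal cell markers, 10 passed and 0 were called, with medians of 0.05 at 5d and 0.07 at 28d. The sodium channel subunits Scnn1a at 5d (0.16, adjusted p = 0.72) and Scnn1g at 28d (0.23, adjusted p = 0.61) and the sodium pump regulator Fxyd4 between the times (0.20, adjusted p = 0.85) had the lowest p-values. Intercalated and principal cells arise from common precursors under Notch signalling. Of 7 genes of this choice, 6 passed and 0 were called. Hes1, a target of Notch, had a mean of 67.9 CPM in sham kidneys, 44.1 CPM at 5d and 76.3 CPM at 28d. Its log2 fold change was −0.61 ± 0.17 (SE, edgeR adjusted p = 0.32) at 5d, where DESeq2 called it (adjusted p = 0.027). Between the times it was 0.79 ± 0.19 (edgeR adjusted p = 0.069). There DESeq2 (adjusted p = 0.000719) and limma's voom (adjusted p = 0.022) called it, as did edgeR without 5d replicate 1 (adjusted p = 0.031) or 28d replicate 3 (adjusted p = 0.023). Tfcp2l1, a transcription factor of the collecting duct, had the lowest p-value of the list at 28d (0.13, adjusted p = 0.62).

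**Figure D5:**
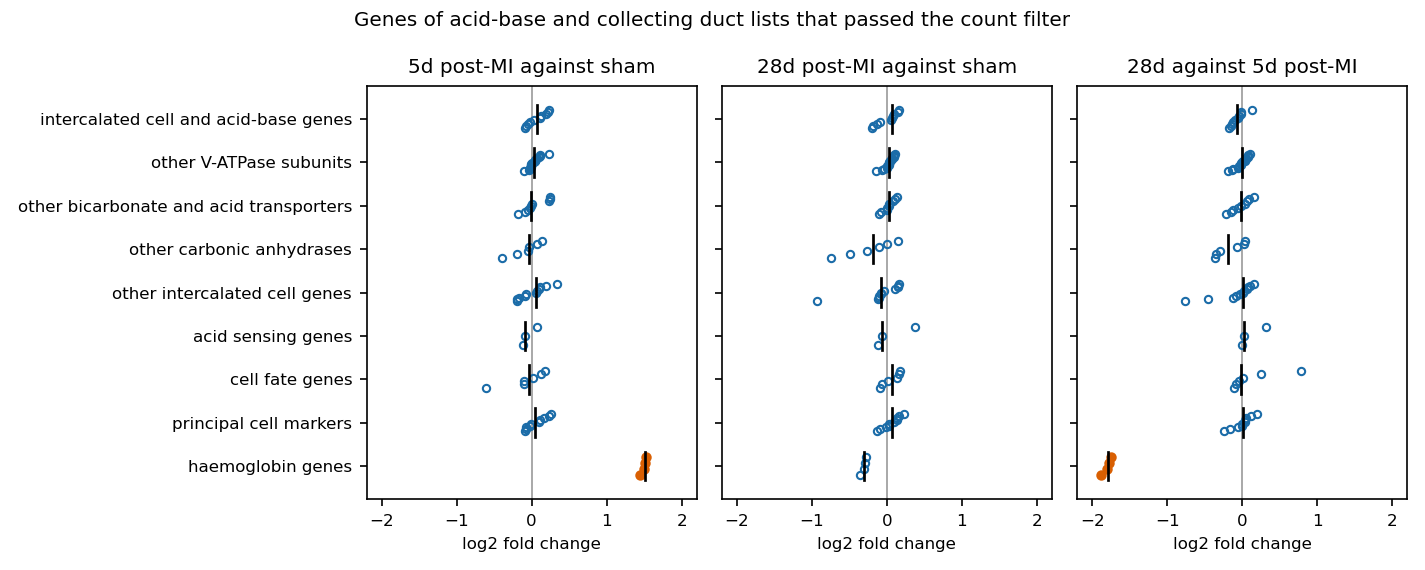
Log2 fold change (x axis) of every gene that passed the count filter in 9 lists (rows) in the 3 comparisons; open points were not called, filled points were called by edgeR, and the black bar is the median of the list. The haemoglobin genes are the ones called, and the medians of the intercalated cell and acid-base genes lie at 0.07, 0.07 and −0.07.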

How the data were processed

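MACE libraries of 24 mouse kidneys are labelled (8 sham, 9 at 5d and 7 at 28d post-MI). Per the study's methods the authors used Cutadapt for trimming, mm10 as the genome and HTSeq for counting, whereas the submitters' processing notes list mm39 as the build, with Bowtie2, FastQC and DESeq2 among the tools. The annotation and strand setting are not given in the sources used here. The authors deposited whole-number counts per gene without normalization. Of these, 22 count columns were used. The other 2 count columns share 1 name between a 5d and a 28d kidney and could not be assigned, and 24 columns named tpm were not used.

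Counts were analysed in R 4.3.3 with edgeR 4.0.16 (filterByExpr with a minimum of 10 counts, TMM, robust quasi-likelihood fit of the 3 groups, two-sided F tests of 3 contrasts), which tested 12780 of the 30116 genes with a count. The call was a p-value under 0.05 after Benjamini-Hochberg adjustment over all of them. Standard errors are the log2 fold change over the square root of F. Levels are TMM-normalized CPM, and log2 CPM used a prior count of 2. Correlations used log2 CPM centred within groups, with 100000 permutations within groups, those with marker lists being added after seeing the data (Python 3.11.15, numpy 2.4.6, scipy 1.17.1, two-sided). Alternatives were DESeq2 1.42.0, RLE and upper quartile normalization, no count filter, voom of limma 3.58.1, the 2 groups compared alone, the haemoglobin score as covariate, a replicate block and each kidney left out, and, chosen after seeing the data, both kidneys high in adrenal genes left out. In simulated counts of 12780 genes for 5d post-MI against sham, with 200 genes changed by a log2 of 1, edgeR called 180 of them and 9 unchanged genes. Its 95% intervals covered 95.2% of the true values over all 12780 genes, most of them unchanged. A log2 of 1 exceeds every member's fitted change, so recovery of changes as small as theirs was not measured.

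The members and lists were chosen with earlier results of these data known. Genes named beside the members are those called, those with the lowest p-value of each list in each contrast, widely expressed counterparts of the pump isoforms, and the genes nearest in correlation, and a few of them are not reported here. Positions are from GENCODE M21 (GRCm38) and were matched by symbol, with 51948 of 56941 identifiers found. Promoters are from RefSeq (GRCm38.p6). Chi-squared per degree of freedom between kidneys of a group was 1.73 to 7.85 over 71 pairs, so no library was counted again. The intervals cover the spread between these kidneys.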

Additional observations from a re-analysis of the deposited data

Results flagged for a closer look

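Foxi1 in 28d replicate 7 stood apart from the other 5 kidneys of its group. Its level was 20.7 CPM, and its gap to the next kidney took 0.682 of the range of the group, above the 95% limit of 0.625 for 6 samples. In all, 30 groups (10 genes in 3 groups) were examined in this way, and chance marks about 1 group in 20. The haemoglobin genes differed between 5d and 28d post-MI in the direct comparison of these times, from the fit that also held the sham kidneys. The log2 difference of 28d from 5d was −1.78 for Hba-a1, −1.80 for Hba-a2, −1.88 for Hbb-bt and −1.75 for Hbb-bs (edgeR adjusted p = 0.0038, 0.0038, 0.0066 and 0.0062). All 6 kidneys at 28d were below the 5d mean for each of these genes. With only the 2 groups compared in the fit, the 4 genes were not called (adjusted p from 0.0545 to 0.0577).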

How the results depend on the processing

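The number of members called stayed at 0 in each comparison under every alternative run. The number of correlated pairs also stayed at 0, and the correlations with haemoglobin kept their side of the threshold. DESeq2 gave 8 of the members no adjusted p-value at 28d post-MI against sham. Of 930 alternative values of the members' log2 fold changes 37 changed sign, 19 of them with 1 kidney left out, and none of these was larger than 0.182 in size. The haemoglobin score did not overlap between 5d and sham kidneys, so that a fit with it as covariate cannot tell it from the group, and it contains Hbb-bs and Hbb-bt themselves. With this covariate the log2 fold change at 5d became 0.0187 for Car2, −0.0157 for Foxi1, 0.179 for Slc26a4, −0.0496 for Slc4a1, −0.0619 for Hbb-bs and −0.0893 for Hbb-bt. Between the times it became 0.00567 for Atp4a, 0.106 for Atp6v0d2, 0.133 for Atp6v1b1, 0.0752 for Atp6v1g3, 0.130 for Foxi1, 0.0634 for Hbb-bs, 0.0812 for Hbb-bt, 0.0954 for Rhcg, 0.182 for Slc4a1 and −0.0995 for Slc4a9. The replicate numbers did not pair the kidneys (18 same-numbered pairs, r from −0.127 to 0.0899). Under a replicate block the sign turned for Foxi1 (−0.00609) and Slc26a4 (0.00366) at 5d, Slc4a1 (−0.00205) at 28d, and Atp6v1b1 (0.0266), Foxi1 (0.110) and Rhcg (0.000872) between the times. Without the sham kidneys high in adrenal genes it turned for Slc4a9 (−0.0242) at 5d. Leaving out 1 kidney gave ranges on both sides of 0 at 5d for Slc26a4 (−0.0605 to 0.0244) and Slc4a9 (−0.00160 to 0.0898), at 28d for Foxi1 (−0.0856 to 0.126) and Slc4a1 (−0.0152 to 0.122), and between the times for Atp6v1b1 (−0.0741 to 0.0380), Atp6v1g3 (−0.0423 to 0.0441), Foxi1 (−0.218 to 0.00562) and Rhcg (−0.0953 to 0.0298).

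The counts of all genes called moved more. At 5d the 9 genes became 36 with DESeq2, 80 with no count filter, 22 with voom, 2 with only the 2 groups compared, 0 with the haemoglobin covariate, 2 under the replicate block and 1 without the kidneys high in adrenal genes. At 28d the 3 genes became 30 with DESeq2, 94 with no filter, 11 with voom, 31 with only the 2 groups, 24 under the block and 1 without those kidneys. Between the times the 53 genes became 91 with DESeq2, 160 with no filter, 26 with only the 2 groups, 0 with the haemoglobin covariate and 80 under the block. Leaving out 1 kidney gave 1 to 38 genes at 5d (38 without 5d replicate 1), 0 to 29 at 28d (29 without sham replicate 8, 0 without 28d replicate 2 or 7) and 41 to 84 between the times (84 without 5d replicate 1). The cause was not tested.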

Other observations

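Markers of other kidney regions were counted beside the acid-base genes, and 0 were called in any comparison by edgeR. The 6 thick ascending limb markers had a median log2 fold change of 0.17 at 5d and 0.12 at 28d post-MI, with Egf at 0.21 (adjusted p = 0.31) at 5d and Kcnj1, a potassium channel, at 0.29 (adjusted p = 0.33) at 28d. Cldn10 stood at 0.16 (adjusted p = 0.65) between the times. The 6 proximal tubule markers that passed the filter had medians of −0.08 at 5d, 0.12 at 28d and 0.19 between the times, where 5 of 6, all but Cubn, fell under an unadjusted p of 0.05, against 9.05% of all genes. The uptake receptor Cubn stood at 0.18 (adjusted p = 0.40) at 5d and −0.07 (adjusted p = 0.80) between the times, the uptake receptor Lrp2 at 0.14 (adjusted p = 0.44) at 28d, and the transporter Slc13a3 at 0.43 (adjusted p = 0.34) between the times. The 6 inner medulla markers had medians of −0.10 at 5d and −0.32 at 28d, with Cryab at −0.31 (adjusted p = 0.87) at 5d, or between −0.61 (without 5d replicate 7) and −0.19 with 1 kidney left out, and S100a4 at −0.51 (adjusted p = 0.52) at 28d and −0.39 (adjusted p = 0.65) between the times.

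The 7 adipocyte markers that passed the filter were lower in 7 of 7 at both times, with medians of −0.44 at 5d and −0.89 at 28d, and 0 were called. Resistin (Retn) stood at −0.84 (adjusted p = 0.57) at 5d, the lipid droplet gene Plin1 at −1.48 (adjusted p = 0.34) at 28d, and Ucp1 of brown fat at −1.86 (adjusted p = 0.63) between the times. Their summed level ran from 263 to 1360 CPM in sham kidneys, from 110.5 to 985 CPM at 5d and from 260 to 717 CPM at 28d. Of the red blood cell genes other than haemoglobin, Slc25a37, which brings iron into mitochondria, stood at 0.39 (adjusted p = 0.12) at 5d.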
